A study of Mus musculus with 28 samples.

Results

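The subunits of the mitochondrial respiratory chain and of ATP synthase that are encoded in the nucleus were followed across all groups of a mouse liver injury model. They were chosen by symbol alone: every probe whose accession maps to a mouse symbol that begins with Nduf, Sdha, Sdhb, Sdhc, Sdhd, Uqcr, Cox4, Cox5, Cox6, Cox7, Cox8 or Atp5. This gave 121 probes for 95 genes among the 41174 probes of the array, and 92 of the 95 genes passed the filter on dim probes, among 20303 features tested in all. Grouped into complexes by symbol prefix, the 92 were 37 genes of complex I, 4 of complex II, 8 of complex III, 15 of complex IV and 17 of ATP synthase, with 7 assembly factors of complex I (Ndufaf) and 4 of complex II (Sdhaf) that share the prefix. By its prefix Ndufa4 is counted with complex I throughout, although its protein is now placed in complex IV. The 3 genes that did not pass were isoforms of complex IV known from other tissues: Cox4i2 and Cox8c were well above background on 0 of 28 arrays and Cox7b2 on 3. Of the 92, 91 were well above background on all 28 arrays and Cox8b on 23, and no probe was saturated.

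The mice all lacked Fah, the last enzyme of tyrosine breakdown, and were kept alive with the drug NTBC in the drinking water, which blocks the pathway upstream of the toxic products that build up without Fah. The 7 groups, of 4 arrays each, were Fah-/- livers on the full dose (7.5 mg/L), on a lowered dose or without NTBC, Fah-/- p53-/- livers at the same 3 levels, and Fah-/- p21-/- livers with no NTBC. The labels of the samples give the reduced dose as 25% of the full one, while the protocol text gives 2.5% over 3 months, and reduced dose stands for both below. No group carried a working Fah gene. Strain and age are not given in the sources, which also do not say if each array is a separate mouse, so p-values measure the spread between these arrays.

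Complex I oxidises NADH and complex II oxidises succinate, complex III passes the electrons from ubiquinol to cytochrome c, and complex IV hands them to oxygen, while ATP synthase uses the proton gradient that complexes I, III and IV build. Some subunits of complexes I, III and IV and of ATP synthase come from mitochondrial DNA, for which the array holds no named probe. All the genes described here are read in the nucleus and imported as proteins. Hepatocytes are rich in mitochondria, and the liver uses this chain for gluconeogenesis, the urea cycle and fat oxidation.

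Levels are log2 processed intensities relative to the 75th percentile of the array, and a gene was called where limma's adjusted p (Benjamini-Hochberg over 20303 features) was under 0.05. Of the 92 genes, 73 lay in the brightest 10% of all features. The counts of calls differed between array scalings, so values after quantile normalization are given beside those as reported. The 75th percentile signal ranged from 252 to 578 over the arrays, with 54.8% to 68.5% of probes well above background. All full-dose arrays were scanned in a run of their own, as were all reduced-dose arrays, so dose and scan run cannot be told apart. The Y-linked and X-inactivation transcripts showed male livers throughout, except for 4 of 4 female arrays in Fah-/- p53-/- without NTBC and 2 of 4 in Fah-/- p21-/-. In the former group sex and dose therefore cannot be told apart, nor can sex and genotype where it is compared with Fah-/- without NTBC. The comparisons with Fah-/- p21-/- are of groups unlike in sex. Array 1 of Fah-/- p53-/- without NTBC and arrays 1 and 2 of Fah-/- p21-/- stood farthest from their groups over all features. Cdkn1a, which encodes p21, was not called lower in Fah-/- p21-/- than in Fah-/- without NTBC (-1.04 ± 0.43, SE, adjusted p = 0.141 by limma), and Trp53 was not called in Fah-/- p53-/- at the full dose (-0.20 ± 0.14, SE, adjusted p = 0.375 by limma). The sources do not place these probes inside or outside the deleted parts, so they do not check the genotypes.

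Without NTBC, 15 respiratory chain genes fell in both genotypes whichever way the arrays were scaled. In each genotype the share of genes with such a fall was below that of all features. In Fah-/- livers 19 genes were lower, and 1 was higher, in the fit as reported and in each alternative run (2 further normalizations, the deposited value table, no dim-probe filter, the mean of probes, other sets of arrays, replicate and slide blocks, and each array left out in turn). These were 20.7% of the 92 genes for the falls, against 28.1% of all features, and 1.09% against 13.5% for the rises. The Fah-/- p53-/- livers had 20 genes lower in the fit as reported and in each alternative that could be run (21.7% against 25.2% of all features). Male arrays alone could not be fitted there, since the group without NTBC held none. In both lists were 15 genes, 78.9% of the first and 75% of the second, and the like overlap over all features is not given here. The 15 were Uqcrq of complex III, Ndufb10, Ndufv3, Ndufv1, Ndufb5, Ndufs6, Ndufa3, Ndufa9 and Ndufb2 of complex I, Sdha of complex II, Cox6c, Cox7a1, Cox7b and Cox7c of complex IV, and Atp5k of ATP synthase. By complex, the 19 genes lower in Fah-/- were 11 of 37 in complex I, 1 of 7 complex I assembly factors, 1 of 4 in complex II, 1 of 8 in complex III, 4 of 15 in complex IV and 1 of 17 in ATP synthase. Of all features, 41.5% were called lower in Fah-/- and 40% in Fah-/- p53-/- in the fit as reported, and 34.6% and 34.1% after quantile normalization.

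The promoters of nuclear respiratory genes are known for sites of NRF1, of GABP (also NRF2) and of the estrogen-related receptors, and 4 promoters are shown as examples of these motifs. They were picked by hand from 17 genes that hold such a motif and were called lower without NTBC in both genotypes in the fit as reported. In all, 22 genes held such a motif, and 72 of the 92 genes were lower in both genotypes, so the fall does not set the 17 apart. Uqcr11 and Ndufa6 are not among the 15 genes named above. A link between motif and fall was not tested. Each line gives the 250 bases before the transcription start from RefSeq on GRCm38.p6, read 5′ to 3′ on the strand of the gene, with the motif letters in capitals. In Uqcr11 (chr10:80406822-80407071, minus strand) the capitals mark the GABP motif, which begins 66 bases before the start, and an NRF1 motif begins 4 bases before the start and runs past it. In Atp5k (chr5:108434400-108434649, minus strand) they mark NRF1 motifs on both strands, which overlap and begin 50 and 48 bases before the start. In Ndufa6 (chr15:82354292-82354541, minus strand) they mark an NRF1 motif that begins 83 bases before the start, and in Ndufb2 (chr6:39592315-39592564, plus strand) the motif of the estrogen-related receptors, 181 bases before.
Uqcr11: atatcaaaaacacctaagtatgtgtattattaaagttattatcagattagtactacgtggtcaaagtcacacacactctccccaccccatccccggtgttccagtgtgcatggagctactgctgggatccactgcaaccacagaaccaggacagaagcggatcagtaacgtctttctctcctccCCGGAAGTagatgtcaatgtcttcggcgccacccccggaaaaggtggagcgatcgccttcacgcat
Atp5k: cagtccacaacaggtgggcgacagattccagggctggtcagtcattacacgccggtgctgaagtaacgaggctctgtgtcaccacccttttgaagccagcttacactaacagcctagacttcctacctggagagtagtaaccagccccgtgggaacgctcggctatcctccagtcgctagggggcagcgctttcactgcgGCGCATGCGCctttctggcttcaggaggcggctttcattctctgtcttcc
Ndufa6: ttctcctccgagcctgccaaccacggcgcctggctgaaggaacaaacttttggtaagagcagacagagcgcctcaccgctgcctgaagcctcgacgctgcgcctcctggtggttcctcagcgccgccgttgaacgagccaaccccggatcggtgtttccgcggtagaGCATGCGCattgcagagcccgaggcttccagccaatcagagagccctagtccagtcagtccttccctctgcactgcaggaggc
Ndufb2: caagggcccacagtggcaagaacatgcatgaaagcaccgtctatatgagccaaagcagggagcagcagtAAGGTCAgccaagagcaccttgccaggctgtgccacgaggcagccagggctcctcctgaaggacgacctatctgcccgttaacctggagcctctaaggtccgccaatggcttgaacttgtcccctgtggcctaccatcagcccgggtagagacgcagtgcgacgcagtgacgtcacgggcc

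A window of 300 bases (250 before and 50 after the start) was given for 78 of the 92 genes. The NRF1 motif GCATGCGC, searched on both strands as were the others, was in 12 of the 78 (15.4%), against 3.05% of all 27025 genes with a window. The YY1 motif AAGATGGC was in 10 (12.8% against 3.19%), the receptor motif AAGGTCA in 8 (10.3% against 5.38%) and the GABP motif CCGGAAGT in 5 (6.41% against 4.31%). In 8 of the 10 genes with the YY1 motif it lay on the strand of the gene, 23 to 39 bases after the start, and of all 862 genes with the motif 32.5% had it on that strand after the start, at 1 to 43 bases. The stress motif TGATGNAA, which ATF4 dimers bind, was in 0 of the 78 windows and in 4.51% of all. These are matches of letters, not measured sites.

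Uqcrq, a small ubiquinone-site subunit of complex III, had the largest fall of the 92 genes in both genotypes as reported, while after quantile normalization Cox7a1 (-1.35 and -1.90) and Ndufv3 (-1.19 and -1.42) were lower. In Fah-/- its levels were 9.25, 9.19, 9.02 and 9.20 at the full dose, 8.46, 8.51, 8.56 and 8.43 at the reduced dose and 6.69, 6.99, 7.31 and 6.89 with none. The Fah-/- p53-/- levels were 9.32, 9.14, 9.28 and 9.09, then 8.10, 8.35, 8.31 and 8.22, then 6.52, 7.12, 7.02 and 6.94. No array of a dose overlapped those of another dose within a genotype, and the Fah-/- p21-/- arrays, at 7.26, 7.38, 7.14 and 7.19, lay with the other arrays without NTBC. The log2 change without NTBC was -2.20 ± 0.12 (SE) in Fah-/- and -2.31 ± 0.12 in Fah-/- p53-/- (limma, adjusted p = 3.2e-13 and 1.4e-13), and after quantile normalization it was -1.08 and -1.21. At the reduced dose it was -0.68 in Fah-/- and -0.97 in Fah-/- p53-/- (limma, adjusted p = 0.000112 and 1.9e-06), and quantile normalization left -0.17 (not called) and -0.39 (called), while normexp left the second not called. The remaining small subunit with a fall of that order, Uqcr11, changed by -1.33 and -1.70 without NTBC as reported and by -0.36 and -0.75 after quantile normalization, and it lost its call in Fah-/- in the deposited value table.

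**Figure D1:**
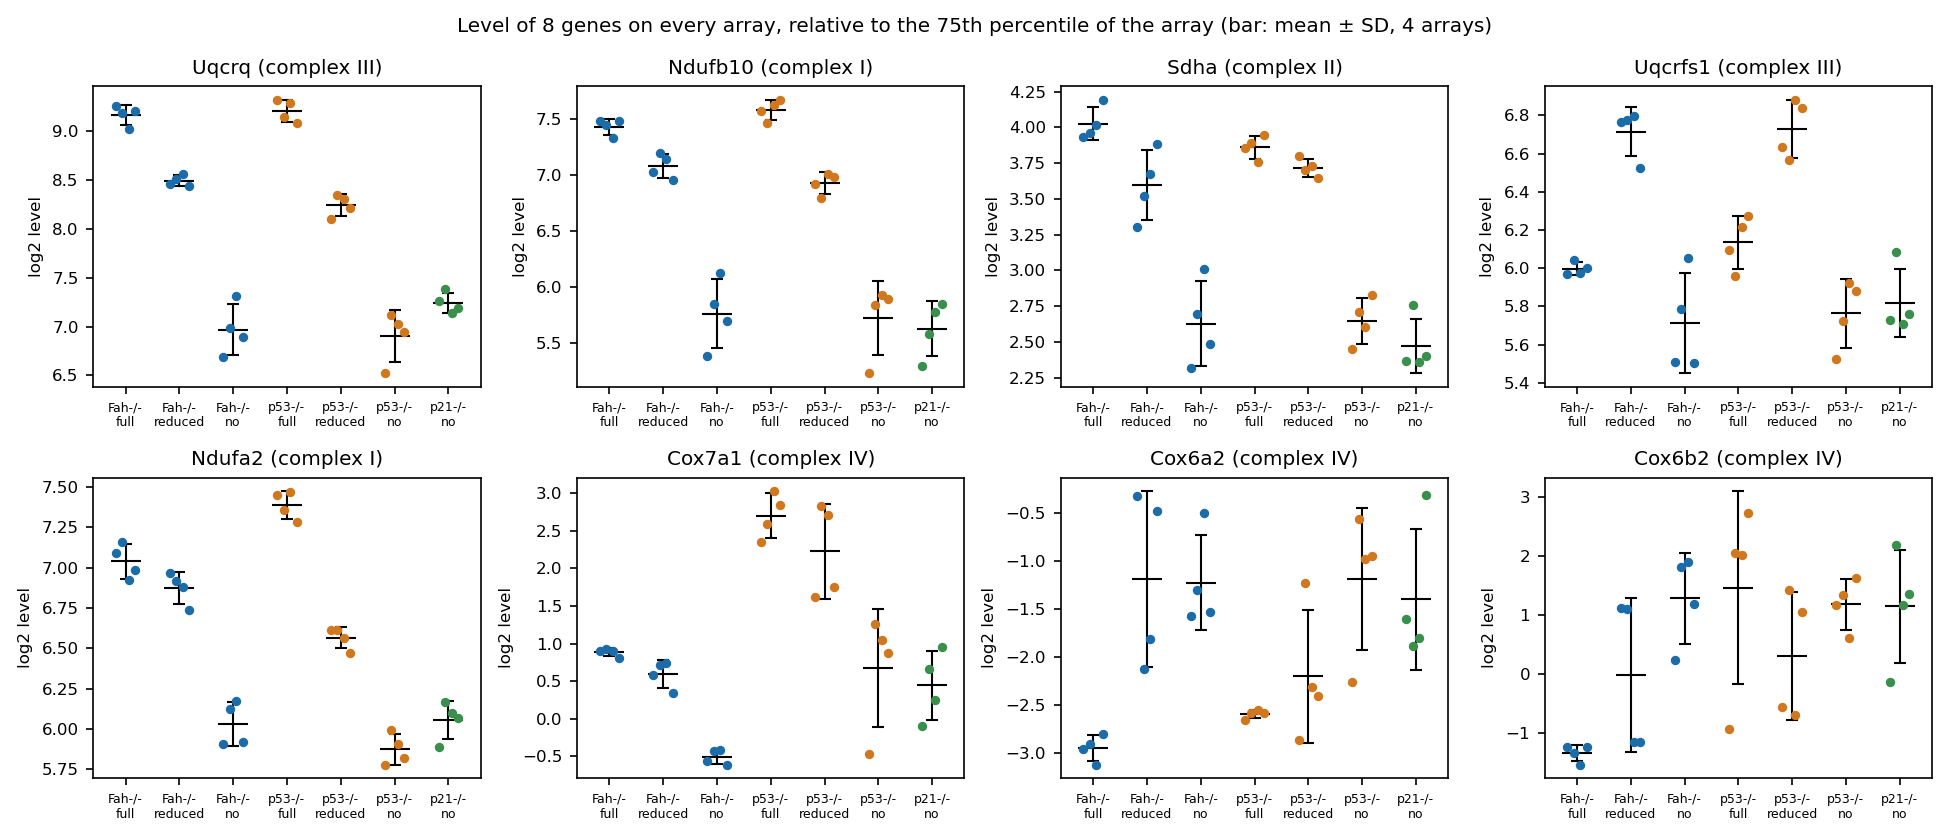
Level of 8 genes on every array (y axis: log2 processed intensity relative to the 75th percentile of the array; x axis: the 7 groups, p53-/- and p21-/- standing for Fah-/- p53-/- and Fah-/- p21-/-; points: arrays; bars: mean ± SD, n = 4). Uqcrq lies at 9.02 to 9.32 on all full-dose arrays and at 6.52 to 7.38 on all arrays without NTBC, while Cox6a2 and Cox6b2 spread widely within groups.

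Other parts of complex III had other patterns. Uqcrfs1, the Rieske iron-sulfur protein, stood at 5.97, 6.04, 5.98 and 6.0 in Fah-/- at the full dose, at 6.76, 6.78, 6.80 and 6.52 at the reduced dose and at 5.51, 5.79, 6.05 and 5.51 with none. With p53 also absent it stood at 6.10, 5.96, 6.21 and 6.27, at 6.63, 6.57, 6.88 and 6.84 and at 5.53, 5.73, 5.92 and 5.88. Every reduced-dose array was above every full-dose array of its genotype. At the reduced dose Uqcrfs1 rose by 0.72 ± 0.12 (SE) in Fah-/- and by 0.59 ± 0.12 in Fah-/- p53-/- (limma, adjusted p = 6.95e-05 and 0.000505), the only one of the 92 genes to keep its call in both genotypes at that dose in every alternative. Without NTBC its change was -0.28 and -0.37 as reported but 0.48 and 0.38 after quantile normalization, so no direction is given there. Uqcr10, another small subunit, was not called without NTBC (-0.07 and -0.17) and was 0.96 and 0.86 higher after quantile normalization, where both were called.

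In complex I the largest falls were in the accessory subunits of the membrane arm and of the NADH-oxidising module. Ndufb10, a membrane-arm subunit, was at 7.48, 7.45, 7.33 and 7.48 in Fah-/- at the full dose and at 5.38, 5.85, 6.13 and 5.70 without NTBC, and at 7.58, 7.47, 7.62 and 7.68 and at 5.23, 5.84, 5.93 and 5.89 in Fah-/- p53-/-. The doses did not overlap, and array 1 was the lowest without NTBC in both genotypes. The change was -1.67 ± 0.15 (SE) and -1.86 ± 0.15 (limma, adjusted p = 7.3e-10 and 1.1e-10), with -0.83 and -1.01 after quantile normalization. Ndufb5, of the same arm, changed by -1.22 and -1.20 as reported and by nearly as much, -1.06 and -1.07, after quantile normalization.

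Ndufv1, the subunit that binds FMN and NADH, changed by -1.22 ± 0.14 (SE) and -1.28 ± 0.14 (limma, adjusted p = 8.7e-08 and 4.0e-08), and by -0.53 in both genotypes after quantile normalization. Ndufv3, an accessory subunit beside it, changed by -1.59 and -1.77 at the probe that stood for it (-1.19 and -1.42 after quantile normalization). Its other 2 probes changed by -0.79 and -0.45 in Fah-/- and by -0.67 and -0.33 in Fah-/- p53-/-, so the probes shared the direction and differed in size. At the reduced dose in Fah-/- p53-/- its probes were called in opposite directions, from -0.47 to 0.58, as were those of the complex II assembly factor Sdhaf2 without NTBC in that genotype, from -0.40 to 0.28. Ndufv2, the iron-sulfur partner of Ndufv1 in the same module, was not called as reported (0.27 and 0.34) and was called higher after quantile normalization (0.65 and 0.68). Ndufs6 fell by 1.0 and 0.99 on the log2 scale (0.30 and 0.24 after quantile normalization), and Ndufs8, a core iron-sulfur subunit, changed by -0.73 in Fah-/- (-0.41 after quantile normalization). The 2 probes of Ndufab1 disagreed as reported. The one that stood for it was not called without NTBC (-0.12 and 0.14), while the other was called at -1.77 and -0.97. At the reduced dose the first was at -0.21 and 0.15 (not called) and the other at -1.43 and -1.27 (called).

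Ndufaf1, an assembly factor of the membrane arm, was already lower at the reduced dose. It was at 2.97, 2.97, 2.96 and 3.00 in Fah-/- at the full dose, at 2.29, 2.33, 2.58 and 2.40 at the reduced dose and at 1.90, 1.91, 2.19 and 1.74 without NTBC, with no overlap between doses. The change was -0.58 ± 0.10 (SE) at the reduced dose and -1.04 ± 0.10 without NTBC (limma, adjusted p = 9.97e-05 and 3.8e-09), and both calls held in every alternative. Its change in Fah-/- p53-/- was -0.77 without NTBC, a call lost only under normexp background correction (adjusted p = 0.0798 by limma). Other assembly factors with this prefix went the other way in Fah-/-, Ndufaf4 at 0.36 and Ndufaf5 at 0.40, both called as reported, but the mean of its probes placed Ndufaf4 at -0.088.

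Sdha, the flavoprotein of complex II that oxidises succinate, was at 3.93, 3.96, 4.02 and 4.19 in Fah-/- at the full dose and at 2.32, 2.69, 3.01 and 2.48 without NTBC, and at 3.85, 3.89, 3.76 and 3.95 and at 2.45, 2.71, 2.61 and 2.83 in Fah-/- p53-/-. The doses did not overlap, and Fah-/- p21-/- without NTBC lay in the same low range at 2.37, 2.76, 2.36 and 2.40. The change was -1.40 ± 0.13 (SE) and -1.21 ± 0.13 (limma, adjusted p = 2.3e-09 and 2.3e-08), with -1.04 and -0.93 after quantile normalization, and its second probe changed by -0.62 and -0.57. Sdhc, a membrane anchor of the same complex, was at 4.94, 4.97, 4.95 and 4.95 in Fah-/- at the full dose and at 5.51, 5.38, 5.69 and 5.44 at the reduced dose. That rise of 0.56 ± 0.12 (SE; limma, adjusted p = 0.000884) held in every alternative, whereas in Fah-/- p53-/- the same comparison gave 0.23 and was not called as reported but was called after quantile normalization (0.53).

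In complex IV the small structural subunits Cox6c, Cox7b and Cox7c fell without NTBC. Cox7c was at 4.16, 4.14, 4.15 and 4.35 in Fah-/- at the full dose and at 2.93, 3.05, 3.18 and 2.90 without NTBC, and at 4.53, 4.39, 4.61 and 4.50 and at 2.40, 3.02, 3.45 and 3.06 in Fah-/- p53-/-. Its change was -1.19 ± 0.18 (SE) and -1.52 ± 0.18 (limma, adjusted p = 4.1e-06 and 1.0e-07), with -0.78 and -1.15 after quantile normalization. Cox6c changed by -1.19 and -1.55 (-0.28 and -0.66) and Cox7b by -1.22 and -1.24 (-0.34 and -0.36), with the values after quantile normalization in parentheses.

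Several subunits of complex IV exist as a common isoform and a second one known from muscle, brown fat or testis, and these isoforms did not move together. Cox7a1, the isoform of heart, muscle and brown fat, was at 0.90, 0.92, 0.90 and 0.81 in Fah-/- at the full dose, at 0.59, 0.72, 0.74 and 0.34 at the reduced dose and at -0.56, -0.43, -0.41 and -0.61 without NTBC. It was higher in Fah-/- p53-/- throughout the first 2 doses, at 2.35, 2.59, 3.03 and 2.85 and at 1.62, 2.83, 2.71 and 1.75, and it was at -0.48, 1.25, 1.05 and 0.87 without NTBC, where array 1 alone overlapped the Fah-/- arrays. Fah-/- p21-/- without NTBC was at -0.09, 0.66, 0.25 and 0.95.

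Cox7a1 was the single gene of the 92 to be called between Fah-/- p53-/- and Fah-/- at every dose. The difference was 1.82 ± 0.30 (SE) at the full dose, 1.63 ± 0.30 at the reduced dose and 1.18 ± 0.30 without NTBC (limma, adjusted p = 0.000166, 0.000727 and 0.0107), and the first 2 calls held in every alternative. The call without NTBC, between 4 female and 4 male arrays, was lost when the 2 groups were fitted alone and with the slide as a fixed block. At the full and reduced doses each genotype lay on a slide of its own, so genotype and slide cannot be told apart there. Within Fah-/- p53-/-, Cox7a1 fell by 2.03 ± 0.30 on the log2 scale without NTBC, and within Fah-/- by 1.39 ± 0.30 (SE; limma, adjusted p = 2.2e-06 and 0.000251). In Fah-/- p21-/- against Fah-/- without NTBC the difference was 0.95 ± 0.30 and was not called (SE; limma, adjusted p = 0.0532). Of 10 markers of skeletal and heart muscle 6 were kept, and their mean level was -4.11 to -3.22 on Fah-/- and -3.77 to -3.20 on Fah-/- p53-/- full-dose arrays, while Ckm, Myh6 and Mb were well above background on 0 of 28 arrays. Of 6 markers of brown fat, Ucp1 was well above background on 1 array and Dio2 on 0, Cidea and Plin5 were on all 28, and the other 2 are Cox7a1 and Cox8b themselves. The mean of the 4 kept includes Cox7a1 itself, so it is not a separate measure of brown fat to set beside that gene. It was -0.42 to -0.12 on Fah-/- and -0.60 to 0.12 on Fah-/- p53-/- full-dose arrays, and -0.23 to 0.24 and 0.19 to 1.16 without NTBC. Cidea, also known from fat-laden hepatocytes, was not called between the genotypes at any dose, and Plin5, a lipid droplet protein, was called without NTBC alone, where it was 1.54 higher in Fah-/- p53-/-. The part of these cells in the values of Cox7a1 was not tested.

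Cox6a2, the muscle isoform, and Cox6b2, the testis isoform, had the widest spread between arrays of a group among the 92 genes, with a median SD over the 7 groups of 0.70 and 0.96. Cox6a2 was at -2.96, -2.91, -3.13 and -2.80 in Fah-/- at the full dose, at -0.32, -2.13, -1.81 and -0.48 at the reduced dose and at -1.57, -1.30, -0.50 and -1.53 without NTBC. It was called higher in Fah-/- at the reduced dose and without NTBC (1.76 ± 0.42 and 1.73 ± 0.42, SE, adjusted p = 0.00179 and 0.00082 by limma) and higher in Fah-/- p53-/- without NTBC (1.41 ± 0.42, adjusted p = 0.0046), and all 3 calls were lost under normexp background correction. Cox6b2 was at -1.23, -1.32, -1.53 and -1.23 in Fah-/- at the full dose and at 0.24, 1.81, 1.89 and 1.19 without NTBC, but at -0.93, 2.04, 2.02 and 2.72 in Fah-/- p53-/- at the full dose, where array 1 lay apart from the other 3. Its differences, 2.61 ± 0.68 without NTBC in Fah-/- and 2.79 ± 0.68 between the genotypes at the full dose (SE; limma, adjusted p = 0.00164 and 0.00744), were called in every alternative. Cox8b, the other muscle isoform, was near background, at -4.03 to -3.68 on Fah-/- full-dose arrays, and no fold is given for it. The common isoform Cox6a1 went from 9.60, 9.56, 9.41 and 9.61 to 8.51, 8.65, 8.77 and 8.51 in Fah-/- without NTBC, -0.93 as reported, and was 0.57 higher after quantile normalization.

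In ATP synthase, Atp5k, the small subunit e of the membrane part, was at 6.32, 6.17, 6.05 and 6.17 in Fah-/- at the full dose and at 4.89, 5.35, 5.48 and 4.92 without NTBC, and at 6.47, 6.45, 6.76 and 6.47 and at 4.73, 5.55, 5.47 and 5.36 in Fah-/- p53-/-. Its change was -1.02 ± 0.15 (SE) and -1.26 ± 0.15 (limma, adjusted p = 3.1e-06 and 1.4e-07), with -0.31 and -0.51 after quantile normalization. The central-stalk subunits Atp5e and Atp5d fell by 1.33 and 0.96 on the log2 scale in Fah-/- p53-/- in every alternative run (0.35 and 0.25 after quantile normalization), while in Fah-/- Atp5e changed by -1.14 as reported and by -0.16, not called, after quantile normalization. In the catalytic head, Atp5b, the beta subunit, was at -0.76 and -0.82 as reported and at 0.32 and 0.15 after quantile normalization, at the probe that stood for it. Its other 2 probes were at -0.11 (not called) and -0.30 in Fah-/- and at -0.058 (not called) and -0.45 in Fah-/- p53-/- as reported. Atp5a1, the alpha subunit, was at -0.70 and -0.60 as reported and at 0.18 and 0.36 after quantile normalization. Cox4i1 of complex IV also changed sign with the scaling, at -0.74 and -0.75 and at 0.32 and 0.28.

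Over the 92 genes, the count of falls without NTBC depended on the scaling. In Fah-/- 75 genes were called lower and 4 higher, against 70.8% of all features called in either direction (41.5% lower and 29.3% higher), with a median change of -0.70 for the 92 and -0.17 for all features. After quantile normalization 22 were lower and 34 higher, against 69.6% of all features (34.6% lower and 35% higher), with medians of 0.07 and 0.01. In Fah-/- p53-/- 74 were lower and 1 higher (69.7% of all features called, 40% lower and 29.6% higher), with medians of -0.72 and -0.14, and after quantile normalization 27 were lower and 26 higher (69.2%, with 34.1% lower and 35.1% higher), with medians of 0.00 and 0.02. As reported 72 genes were lower in both genotypes, 3 in Fah-/- alone and 2 in Fah-/- p53-/- alone. The like overlap over all features is not given here, so these counts do not set the 92 genes apart. The order of the genes was steadier than their direction: the changes as reported and after quantile normalization had a Spearman correlation of 0.80 in Fah-/- and 0.77 in Fah-/- p53-/- across the 92 genes, with a median shift of 0.73 and 0.75. The changes in the 2 genotypes, which share no arrays, correlated at 0.94 as reported and 0.91 after quantile normalization (Spearman, 92 genes). Genes are not independent replicates, so these correlations describe the gene set only.

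**Figure D2:**
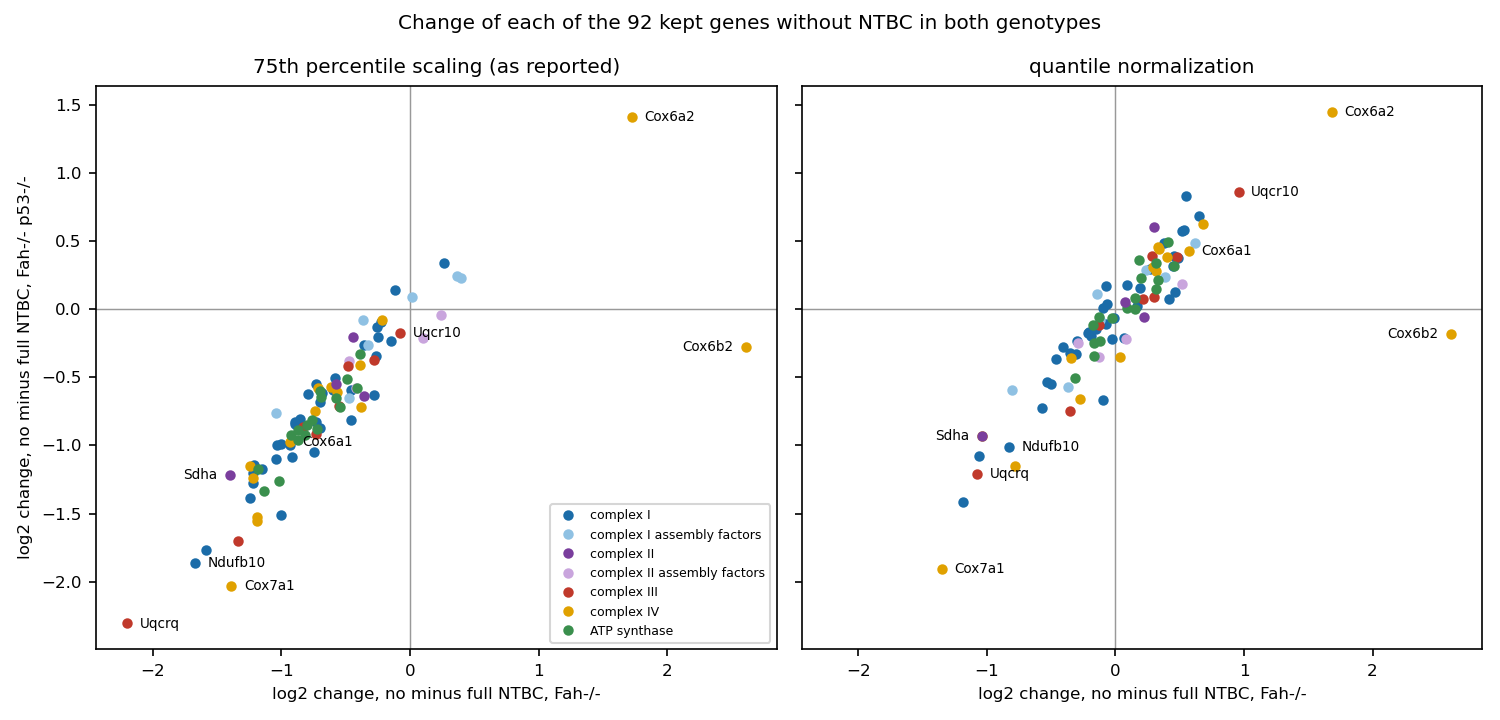
Log2 change without NTBC of each of the 92 genes in Fah-/- (x axis) and in Fah-/- p53-/- (y axis), scaled by the 75th percentile (left) and after quantile normalization (right), coloured by complex. The medians move from -0.70 and -0.72 to 0.07 and 0.00 while Uqcrq, Ndufb10, Sdha and Cox7a1 stay on the lower left in both panels.

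By complex, the change as reported was lower for 17 of 17 genes of ATP synthase, 30 of 37 of complex I, 4 of 4 of complex II, 7 of 8 of complex III and 12 of 15 of complex IV in Fah-/-. After quantile normalization it was lower for 1, 11, 1, 2 and 5 of them and higher for 4, 13, 0, 5 and 8. For Fah-/- p53-/- 17, 31, 3, 7 and 12 genes of the same complexes were lower as reported, and 3, 11, 1, 2 and 6 were lower and 5, 8, 1, 3 and 7 higher after quantile normalization. After quantile normalization complexes I, III and IV and ATP synthase thus each had calls in both directions in each genotype. Of all features, 41.5% in Fah-/- and 40% in Fah-/- p53-/- were lower as reported. After quantile normalization 34.6% and 34.1% were lower, and 35% and 35.1% higher. In complex I 11 of 37 genes were lower in Fah-/- in every alternative, near the 28.1% of all features.

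**Figure D3:**
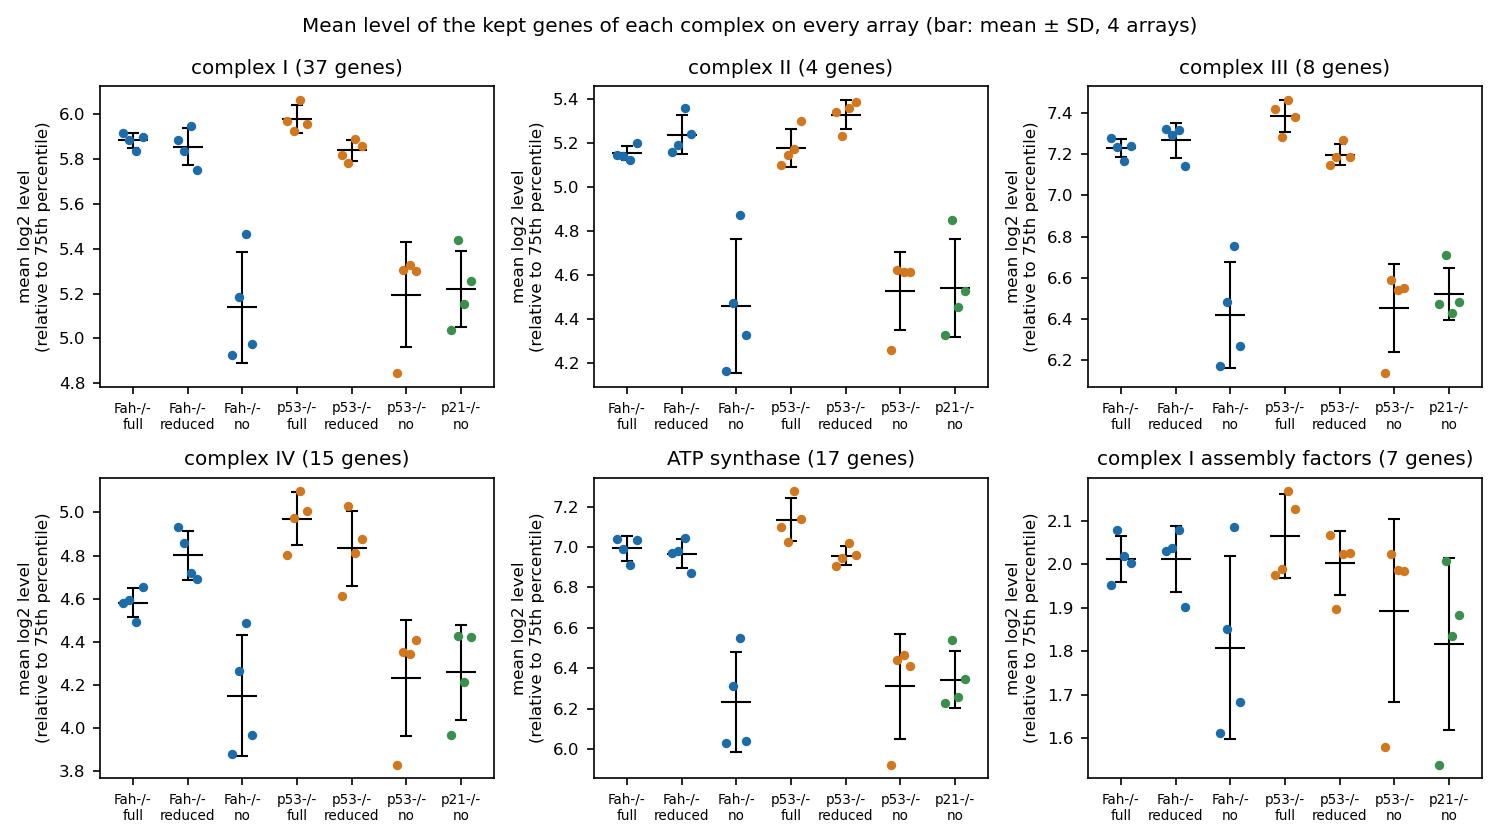
Mean level of the genes of each complex on every array (y axis: mean log2 level relative to the 75th percentile; x axis: the 7 groups; points: arrays; bars: mean ± SD, n = 4). On this scale the 12 arrays without NTBC lie below the full-dose arrays for complexes I, II, III and IV and ATP synthase. In complex IV the nearest arrays almost meet, at 4.488 without NTBC and 4.492 at the full dose, both in Fah-/-. After quantile normalization the median change of the 92 genes without NTBC is 0.07 and 0.00.

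The mean of the 92 genes shows the same dependence array by array. As reported it was 5.49 ± 0.04 (SD, n = 4) in Fah-/- at the full dose, 5.51 ± 0.07 at the reduced dose and 4.86 ± 0.25 without NTBC, and 5.64 ± 0.07, 5.50 ± 0.04 and 4.91 ± 0.23 in Fah-/- p53-/-, with 4.94 ± 0.17 in Fah-/- p21-/-. The genes of an array moved together within the groups without NTBC. On array 3 of Fah-/- 92 of 92 genes lay above their group mean, on arrays 1 and 4 of that group 91 of 92 lay below, and on array 1 of Fah-/- p53-/- 88 of 92 lay below. Under normexp the Fah-/- p53-/- full-dose arrays split, with arrays 2 and 3 at 4.48 and 4.45 and arrays 1 and 4 at 5.30 and 5.40. Array 2 of Fah-/- p53-/- without NTBC was also low, at 4.19 beside 4.45, 4.88 and 4.89. The fit shares its estimate of spread over all groups, so comparisons without these arrays also rest on a wide spread under normexp. For Fah-/- p21-/- against Fah-/- without NTBC, the SE of Atp5b was 0.086 as reported and 0.21 under normexp.

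**Figure D4:**
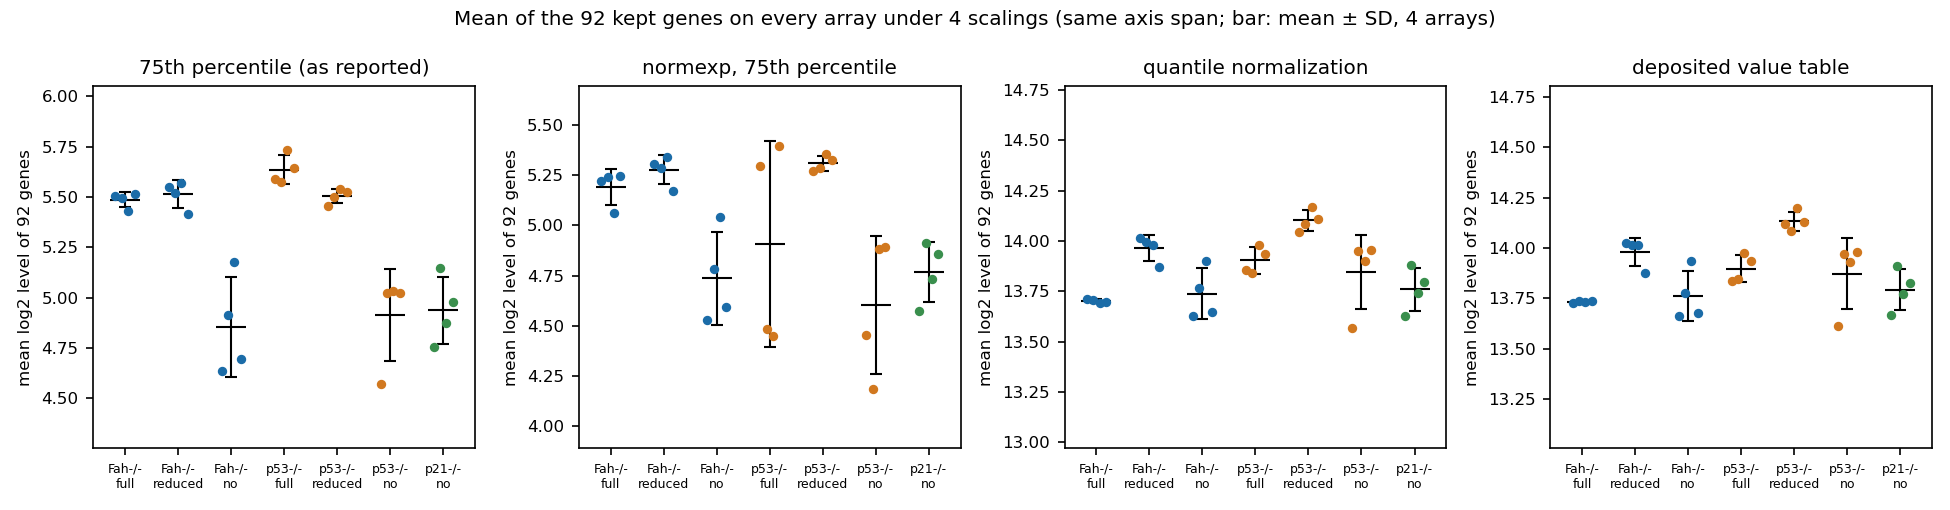
Mean of the 92 genes on every array (y axis: mean log2 level, the same span in each panel; x axis: the 7 groups; points: arrays; bars: mean ± SD, n = 4) under 4 scalings. The groups without NTBC are lowest under the 75th percentile scaling (4.86 in Fah-/- against 5.49 at the full dose), and with quantile normalization the median change of the genes without NTBC is 0.07 and 0.00.

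Other features of like brightness were counted beside the genes. Of the 1958 other features in the brightest 10%, 62.7% were called lower without NTBC in Fah-/- with a median of -0.51, while of the 73 respiratory chain genes in that bin 87.7% were lower with a median of -0.73. The figures in Fah-/- p53-/- were 59.2% and -0.47 for the others and 89% and -0.81 for the 73. After quantile normalization the medians were 0.11 and 0.09 in Fah-/- and 0.10 and 0.02 in Fah-/- p53-/-, for the others and the 73 in turn. That method gives every array the same distribution, which limits how far the brightest features can move as a whole. The part of brightness in the changes was not tested further.

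**Figure D5:**
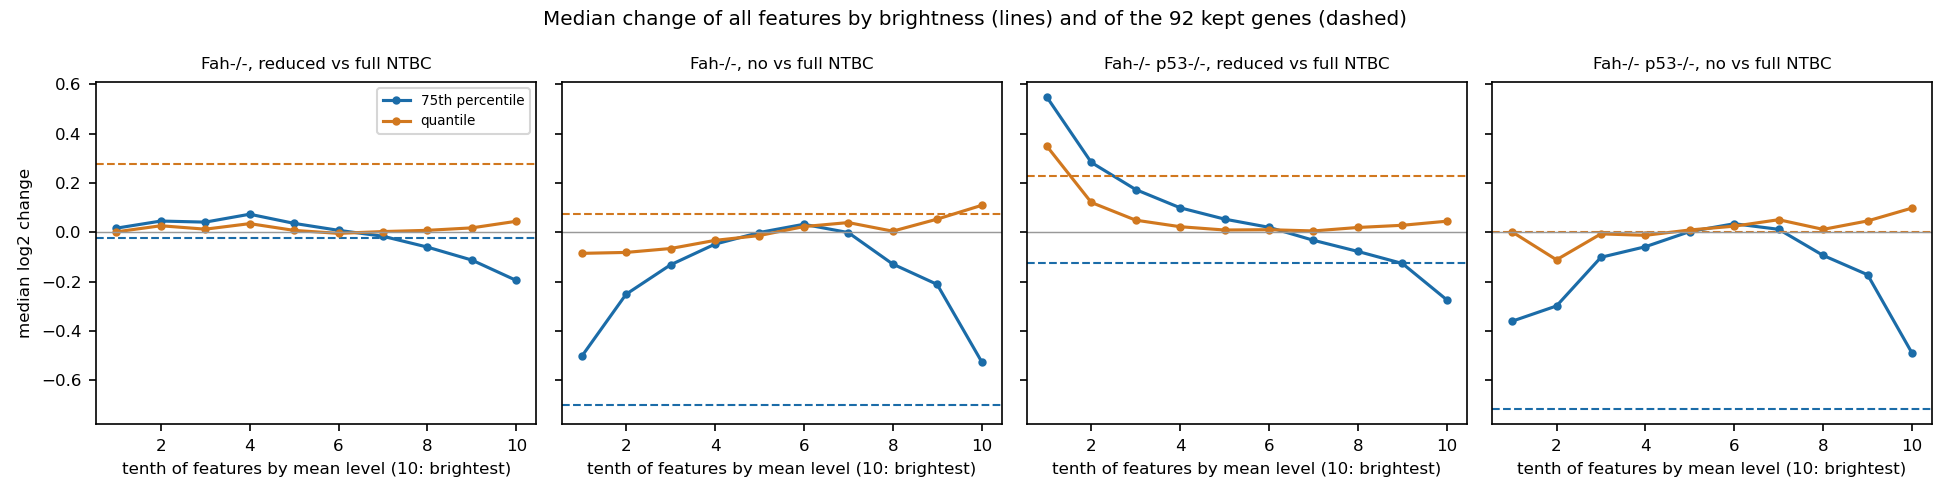
Median log2 change of all features (y axis) by bin of mean level (x axis, 10 bins of equal size, 10 the brightest) for reduced and no NTBC in both genotypes, under 75th percentile scaling and quantile normalization (solid lines), with the median of the 92 genes dashed. In Fah-/- without NTBC the dashed lines lie at -0.70 and 0.07.

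At the reduced dose the calls as reported were evenly split in Fah-/- and mostly lower in Fah-/- p53-/-, and mostly higher in both after quantile normalization. In Fah-/- 9 were called higher and 9 lower, with a median of -0.02, against 39.8% of all features called (17.4% higher and 22.3% lower). In Fah-/- p53-/- 3 were higher and 20 lower, with a median of -0.12, against 39.8% of all features (20.4% higher and 19.4% lower). After quantile normalization the same comparisons gave 45 higher and 2 lower (38.2% of all features called, 19.4% higher and 18.8% lower, median 0.28) and 37 higher and 6 lower (36.6%, with 20.7% higher and 15.9% lower, median 0.23). Of the calls as reported, 3 of 18 in Fah-/- (Uqcrfs1, Sdhc and Ndufaf1) and 1 of 23 in Fah-/- p53-/- (Uqcrfs1) held in every alternative. In Fah-/- these were 2.17% of the 92 genes for the rises and 1.09% for the falls, below the 3.46% and 5.48% of all features. The shares in Fah-/- p53-/- were 1.09% and 0%, below the 4.15% and 5.11% of all features. Within the brightest 10%, the 73 genes had a higher median than the other 1958 features in both genotypes under both scalings: -0.02 against -0.21 and -0.13 against -0.28 as reported, and 0.28 against 0.03 and 0.27 against 0.03 after quantile normalization, in Fah-/- and Fah-/- p53-/- in turn.

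As reported, between 0 and 4 respiratory chain genes were called between genotypes at the same dose, and the counts moved with single arrays. At the full dose 4 genes were higher in Fah-/- p53-/- than in Fah-/- and 0 lower (13.9% of all features called, 6.31% higher and 7.64% lower): Cox7a1 and Cox6b2, and Ndufa2 and Ndufa7 at 0.35 and 0.28, which turned to -0.13 and -0.25 under normexp. At the reduced dose 1 was higher and 2 lower (15.6% called, 9.83% higher and 5.78% lower), Cox7a1, and Ndufa2 at -0.31 and Cox7a2l at -0.42. Without NTBC 1 gene, Cox7a1, was higher in Fah-/- p53-/- than in Fah-/- (14.3% called, 7.66% higher and 6.6% lower), with 3 without Fah-/- array 3, 4 without Fah-/- p53-/- array 1 and 8 without the 3 arrays farthest from their groups. For Fah-/- p21-/- against Fah-/- limma called 0 of the 92 (7.52% of all features called), and for Fah-/- p53-/- against Fah-/- p21-/- it also called 0 (11% called), while normexp and quantile values gave 0 in both and the deposited value table gave 1 and 0. With Fah-/- array 3 left out the first count was 8, all higher in Fah-/- p21-/-, and it was 2 without Fah-/- p21-/- array 1. The second was 2 without Fah-/- p53-/- array 1. At an unadjusted p under 0.05 the counts were 7 and 3 of 92, against 23.2% and 25.3% of all features. These counts rest on 1 probe per gene. Counted by probe, 1 of 118 was called in Fah-/- p21-/- against Fah-/-, the second of Ndufab1, higher by 0.72 (limma, adjusted p = 0.00362). For Fah-/- p53-/- against Fah-/- p21-/- 2 of 118 were called lower, of Atp5b (-0.40) and Ndufv3 (-0.48). These probes did not stand for their genes, and the like shares over all probes are not given here.

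The response to dose was called different between the genotypes for 2 genes. Ndufa2, an accessory subunit of the matrix arm of complex I, was at 7.09, 7.16, 6.92 and 6.98 in Fah-/- at the full dose, 6.97, 6.92, 6.88 and 6.74 at the reduced dose and 5.91, 6.12, 6.17 and 5.92 without NTBC. Its Fah-/- p53-/- levels were 7.45, 7.36, 7.47 and 7.28, at 6.62, 6.62, 6.56 and 6.47 and at 5.78, 5.99, 5.90 and 5.82, higher than in Fah-/- at the full dose and lower at the reduced dose with no overlap. The difference between the responses was -0.66 ± 0.12 (SE) for the reduced dose and -0.51 ± 0.12 for no NTBC (limma, adjusted p = 0.00144 and 0.00977), where 10.4% and 9.13% of all features were called (3.61% and 4.23% lower), and under normexp, with -0.17 and -0.24, neither was called. The response to no NTBC in Fah-/- p53-/- sets female against male arrays, so there the sexes and the genotypes cannot be told apart. Cox7a2l, which joins complexes III and IV in supercomplexes, rose by 0.45 in Fah-/- at the reduced dose (limma, adjusted p = 0.00158, not called under normexp), from 3.85, 3.92, 3.95 and 3.99 to 4.41, 4.34, 4.33 and 4.42. In Fah-/- p53-/- it was at 4.28, 4.10, 3.90 and 3.97 and then at 4.05, 3.92, 3.94 and 3.92. Its responses differed by -0.55 ± 0.15 (SE; limma, adjusted p = 0.0191), a call lost under normexp. These were the 2 and 1 calls among the 92 genes for the differences in response to the reduced dose and to no NTBC. Each group at the full and reduced doses lay on a slide of its own. These differences in response therefore cannot be told apart from differences between slides.

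Genes that serve the chain but lie outside the symbol rule were counted in the same fit, where 41.5% of all features were lower and 29.3% higher in Fah-/- without NTBC. After quantile normalization these shares were 34.6% and 35%. Of 36 further assembly factors, 22 were lower and 4 higher in Fah-/- without NTBC, and 13 and 7 after quantile normalization. Timmdc1, which helps to build complex I, changed by -3.39 (-3.27 after quantile normalization) in Fah-/- and by -1.57 (-1.57) in Fah-/- p53-/-. Coa3, which acts on the synthesis of a core complex IV subunit, changed by -1.89 (-1.32) and -1.37 (-0.83), and Bcs1l, which inserts Uqcrfs1 into complex III, by -1.24 (-1.12) and -1.14 (-1.05). Of 78 genes of the mitochondrial ribosome 43 were lower and 4 higher in Fah-/- without NTBC as reported, and 22 and 25 after quantile normalization.

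Of 19 regulators of mitochondrial biogenesis 8 were lower and 3 higher in Fah-/- without NTBC, against 41.5% and 29.3% of all features. After quantile normalization 6 were lower and 3 higher, against 34.6% and 35% of all features. Among those whose motifs were searched in the promoters, Gabpa, the DNA-binding subunit of GABP, changed by -1.02 (-0.99 after quantile normalization) in Fah-/- and -0.94 (-0.92) in Fah-/- p53-/-. Esrrg, an estrogen-related receptor, changed by -1.35 (-1.30) and -1.60 (-1.54), Nrf1 by 0.71 (0.69) and 0.39 (0.39) but by 0.26 and -0.01, not called, under normexp, and Yy1 by -0.27 and -0.06, which were not called after quantile normalization (-0.16 and 0.04). Ppargc1b, a coactivator of these factors, changed by -1.58 (-1.46) and -1.43 (-1.30). Ppargc1a was not called in Fah-/- (-0.33) and was called lower in Fah-/- p53-/- (-0.81).

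Mitochondrial carriers and citric acid cycle enzymes were counted next. In Fah-/- without NTBC 29.3% of all features were higher and 41.5% lower, and 35% and 34.6% after quantile normalization. Of 8 carriers 3 were higher and 0 lower in Fah-/- without NTBC (7 and 0 after quantile normalization), among them Ucp2, a carrier of the inner membrane, at 3.41 in Fah-/- and 3.26 in Fah-/- p53-/-, and Slc25a4, an ADP/ATP carrier, at 0.48 and 1.5. Of 16 genes of the citric acid cycle and pyruvate dehydrogenase 5 were higher and 6 lower as reported, near the shares of all features (29.3% and 41.5%), and 11 and 3 after quantile normalization, with Idh3a at 1.14 and 1.29 and Mdh2 at 0.69 and 0.92. Cycs, the cytochrome c that carries electrons from complex III to complex IV, was called higher at 0.52 and 0.73.

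Markers of liver cell types were counted to check the tissue label and to set beside the dose. Of all features, 41.5% were lower and 29.3% higher in Fah-/- without NTBC, and 40% and 29.6% in Fah-/- p53-/-. After quantile normalization the shares were 34.6% and 35%, and 34.1% and 35.1%. All 9 hepatocyte markers measured were well above background on all 28 arrays. Their mean level was 7.97 to 8.04 on Fah-/- full-dose arrays and 5.61 to 6.12 without NTBC, and 7.57 to 7.78 and 5.58 to 5.95 in Fah-/- p53-/-. All 9 were lower in Fah-/- without NTBC as reported, and 6 were lower and 1 higher after quantile normalization. The mean of 10 macrophage markers was -0.44 to 0.29 on Fah-/- full-dose arrays and 0.55 to 2.14 without NTBC, with 8 of 10 called higher in Fah-/- and 7 in Fah-/- p53-/- under both scalings. The mean of 7 bile duct markers was -1.97 to -1.20 and -0.96 to -0.02 in Fah-/-, with 5 and 4 called higher, and that of 4 red cell markers was 1.38 to 1.44 and -1.70 to -0.43, all 4 lower in both genotypes. The mean of 11 lymphocyte markers was -3.01 to -2.38 on Fah-/- full-dose arrays and -3.42 to -2.96 without NTBC, with 2 called higher and 4 lower. In Fah-/- p53-/- it was -2.71 to -2.18 and -5.14 to -3.27, with 0 higher and 7 lower. That of 9 endothelial markers was 0.97 to 1.17 and 1.38 to 1.57 in Fah-/-, with 4 higher and 2 lower (Lyve1 at 2.66 and Kdr at -0.94 the farthest apart). In Fah-/- p53-/- it was 0.96 to 1.42 and 0.74 to 1.10, with 1 higher and 4 lower. That of 10 stellate cell and matrix markers was 0.90 to 1.13 and 0.80 to 2.10 in Fah-/- and 0.94 to 1.70 and 0.58 to 2.11 in Fah-/- p53-/-, with 3 higher and 1 lower in each. In bulk liver fewer cells of a type and less RNA per cell cannot be told apart, and the part of these cell types in the changes of the respiratory chain genes was not tested.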

How the data were processed

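Liver RNA (0.1 ug, Cy3) from 28 samples was measured on 1-colour Agilent mouse arrays, 4 per group. The deposited scanner files hold processed signal intensity, from which Feature Extraction (10.7.3.1 in the file headers, while the submitters' processing notes name 10.5) had subtracted the background. The deposited value table holds log2 values that follow the log2 median intensity (correlation 0.9895 to 0.9994 per array), with further steps not given in the sources, and served as an alternative. Depth has no count here, and the number of arrays limits the precision.

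Control spots (1639) were left out and spots of a probe averaged. Levels are log2 processed intensity minus the log2 75th percentile of the array. Probes had to be well above background throughout 1 or more groups, which 27509 of 41174 were, and the brightest kept probe stood for a gene, which left 20303 features. Symbols came from matching accessions to RefSeq (28454 probes matched). Group means were fitted over all 28 arrays with limma 3.58.1 in R 4.3.3 (lmFit, eBayes, Benjamini-Hochberg, adjusted p under 0.05). The procedure was tested on simulated data with noise drawn separately for each gene and array. That test did not cover genes that move together on an array, or doses scanned in separate runs. Alternatives were normexp background correction with offset 50 (on median signals), quantile normalization, the deposited table, no filter, the mean of probes, the groups alone, replicate and slide blocks, male arrays, and arrays left out. Genes named are, by rule, members with the largest called changes (up to 10 per direction and comparison), tissue-isoform pairs, catalytic or cofactor-holding subunits, members whose probes disagree, and up to 4 genes of each other list; Cycs, Nrf1, Yy1 and Ppargc1a, and members shown for contrast or stability such as Uqcr10, were added after their values were seen. The members and gene lists were chosen with earlier results of these data known.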

Additional observations from a re-analysis of the deposited data

Results flagged for a closer look

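Values of 18 genes and 8 means over complexes were checked in each of the 7 groups, 182 sets of 4 arrays in all, for 1 array far from the other 3. The gap to the nearest array, as a share of the range of the group, passed Dixon's critical value for 4 arrays in 21 of them, where chance gives about 1 in 20 for independent sets. The sets overlap, and genes of an array moved together, so the 21 cannot be weighed against that share.

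Array 1 of Fah-/- p53-/- without NTBC was the lowest, with gap shares of 0.985 for the mean of all 92 genes, 0.950 for complex I, 0.915 for complex I assembly factors, 0.968 for complex II, 0.90 for complex III, 0.888 for complex IV and 0.901 for ATP synthase, and of 0.880 for Uqcr10, 0.873 for Ndufb10 and 0.873 for Ndufv3. Array 2 of Fah-/- p21-/- was the highest for Uqcrfs1 (0.850), Uqcr10 (0.854), Sdha (0.899) and Cox7a2l (0.874). Array 4 of Fah-/- at the reduced dose was the lowest for complex III (0.852) and Uqcrfs1 (0.878). The single cases were Ndufaf1 (0.841, Fah-/- p53-/- full dose, array 1, lowest), Sdhc (0.845, Fah-/- without NTBC, array 3, highest), Cox7c (0.901, Fah-/- full dose, array 4, highest), Cox7a2l (0.842, Fah-/- p53-/- reduced dose, array 1, highest) and Atp5k (0.919, Fah-/- p53-/- full dose, array 3, highest).

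The response was called different between the genotypes for Ndufa2 (-0.66 at the reduced dose and -0.51 without NTBC, Fah-/- p53-/- minus Fah-/-) and for Cox7a2l (-0.55 at the reduced dose), as tested by limma's interaction contrast. Genotype and slide cannot be told apart at the full and reduced doses.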

How the results depend on the processing

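In the 4 comparisons of dose the counts of called genes moved most with the scaling, and the cause was not tested. In the order Fah-/- reduced, Fah-/- without NTBC, Fah-/- p53-/- reduced and Fah-/- p53-/- without NTBC, each against the full dose, genes called higher were 9, 4, 3 and 1 as reported, 2, 1, 37 and 4 with normexp, 45, 34, 37 and 26 with quantile normalization and 42, 33, 47 and 28 in the deposited table. Genes called lower were 9, 75, 20 and 74 as reported, then 1, 42, 1 and 25, then 2, 22, 6 and 27, then 1, 21, 5 and 27. Of all calls over the array, the share called higher in these comparisons went from 43.9%, 41.4%, 51.2% and 42.5% as reported to 39%, 31%, 24.6% and 32.3% with normexp and 50.8%, 50.3%, 56.5% and 50.7% with quantile normalization. Between Fah-/- p53-/- and Fah-/- at the full dose it went from 45.2% to 22.3% with normexp, where 2 genes were higher and 3 lower, and 11 were higher with quantile normalization. At the reduced dose 8 (quantile) and 9 (deposited) were higher and 0 lower in both and in normexp, and without NTBC 4 and 5 were higher. The deposited table called 1 gene higher in Fah-/- p21-/-. The differences in response called 0 genes with normexp at either dose. The all-feature median moved by over 0.1 with normexp, to -0.18, -0.40, -0.34 and -0.41 in the first 4 comparisons.

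Signs turned without NTBC, with quantile normalization and in the deposited table in turn, for Atp5a1 (0.18, 0.27 in Fah-/-, 0.36, 0.42 in Fah-/- p53-/-), Atp5b (0.32, 0.18, 0.15, 0.14), Cox4i1 (0.32, 0.34, 0.28, 0.38), Cox6a1 (0.57, 0.60, 0.43, 0.62), Uqcr10 (0.96, 0.85, 0.86, 0.75) and Uqcrfs1 (0.48, 0.48, 0.38, 0.45). With normexp Uqcr10 was at 0.13 and 0.25, Uqcrfs1 at 0.14 in Fah-/- p53-/-, and Ndufa2 and Ndufa7 at -0.13 and -0.25 between genotypes at the full dose. The mean of probes put Ndufaf4 in Fah-/- at -0.088, and leaving out 1 array put Uqcr10 in Fah-/- between -0.19 and 0.0021.

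The other alternatives moved small counts. In Fah-/- p53-/- at the reduced dose 5 genes were higher with the mean of probes, the groups alone and the replicate block, 6 with male arrays and 7 without the 3 farthest arrays. Without NTBC there, 2 were higher with the mean of probes and the replicate block and 4 without the 3 arrays. Between Fah-/- p53-/- and Fah-/-, 8 were higher at the full dose without the 3 arrays, 2 at the reduced dose with no filter, male arrays or without the 3 arrays, and without NTBC 2 with the mean of probes, 0 with the groups alone or slide as a fixed block and 8 without the 3 arrays. For Fah-/- p21-/- against Fah-/-, 1 was higher with the replicate block, 2 with male arrays and 2 without the 3 arrays. For Fah-/- p53-/- against Fah-/- p21-/-, 2 were higher and 1 lower without the 3 arrays, and 1 lower with the mean of probes. In the difference in response, the reduced dose gave 1 higher with no filter, 5 lower with the groups alone and 4 lower without the 3 arrays, and no NTBC gave 1 higher without the 3 arrays and 2 lower with the replicate block. Fah-/- at the reduced dose had 14 lower without the 3 arrays.

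With 1 array left out in turn, counts higher and lower were 7 to 11 and 5 to 10 (Fah-/- reduced, 5 without array 2 of that group), 2 to 5 and 69 to 79 (Fah-/- without NTBC, 2 without full-dose array 1 or array 3 without NTBC), 2 to 3 and 14 to 22 (Fah-/- p53-/- reduced), 1 to 3 and 70 to 74 (Fah-/- p53-/- without NTBC, 3 without its array 1), 3 to 4 and 0 between genotypes at the full dose, and 1 and 1 to 3 at the reduced dose (1 without Fah-/- array 1 or Fah-/- p53-/- array 4). Without NTBC they were 1 to 4 and 0 (3 without Fah-/- array 3, 4 without Fah-/- p53-/- array 1). For Fah-/- p21-/- against Fah-/- they were 0 to 8 and 0 (8 without Fah-/- array 3, 2 without Fah-/- p21-/- array 1). For Fah-/- p53-/- against Fah-/- p21-/- they were 0 to 2 and 0 to 1 (2 higher without Fah-/- p53-/- array 1, 1 lower without Fah-/- p21-/- array 1 or Fah-/- p53-/- array 2 or 3). The differences in response were 0 and 2 to 3 at the reduced dose, and 0 and 1 to 2 without NTBC (2 without Fah-/- array 1 or full-dose Fah-/- p53-/- array 1).

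Replicate numbers did not pair the samples: same-numbered arrays of 2 groups correlated at -0.23 to 0.36 (median 0.01, 84 pairs, 18 over 0.1). Of the 77 changes given for named genes, 75 kept their side of the threshold with the replicate block and 77 with slide as a random block.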
